A study of Mus musculus with 19 samples.

Results

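The antiviral effectors described here were Oas1a, Oas2, Oas3, Oasl1 and Oasl2 of the oligoadenylate synthetase (OAS) family, Ifit1, Ifit2 and Ifit3 of the IFIT family, and Mx1 and Mx2 of the Mx family. All probes carrying 1 of these gene names were taken, which gave 14 probes for 10 genes, out of 41174 probes and 27425 gene names on the array. Oas2, Oas3, Ifit2 and Mx1 had 2 probes each and the other 6 genes had 1. The genes were picked with their levels on these arrays already known, so their values in both comparisons are a description and carry no test.

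The data were 1-colour Agilent whole mouse genome arrays from 2 experiments. In the first, C2C12 cells, a mouse myoblast line, were stably transfected either with empty plasmids (WT, 6 arrays) or with plasmids that express wild-type human HDAC4 and HDAC5 (HDAC4&5, 6 arrays). HDAC4 and HDAC5 are class IIa histone deacetylases, which bind transcription factors such as MEF2 and repress their target genes. Both groups carried plasmids and were selected with hygromycin B and geneticin at 500 µg/ml, and RNA was taken 48 h after seeding. The labels do not say whether the 6 cultures of a group came from separate selections, so a difference between the plasmids and a difference between the selected lines cannot be told apart, and the spread measured is that between arrays. In the second, soleus muscle came from male mice aged 12 weeks on a C57BL6J background after a 5 h fast: 3 littermates heterozygous for the db mutation (Con, db -/+) and 4 obese, diabetic homozygotes (db, db +/+). The labels list more WT, HDAC4&5 and db arrays than the biological replicates per group in the study's methods, so some arrays may share a culture or an animal, and every SE, SD and n is over arrays.

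Type I interferons bind their receptor and, through the kinases Jak1 and Tyk2, activate transcription factors that turn on many genes. OAS enzymes sense double-stranded RNA and make short oligoadenylates that set off RNA decay. IFIT proteins bind viral RNA and hinder its translation, and Mx proteins are dynamin-like GTPases that trap viral components. In resting cells all 3 families are usually low, and most cell types, muscle cells among them, raise them when exposed to interferon.

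Type I interferons act on promoters through the interferon-stimulated response element, so promoter sequences were examined for its core. RefSeq promoter windows on GRCm38.p6, which run from 250 bases before a start to 50 bases after it, covered 7 of the 10 genes in 8 windows, 2 of them for Ifit2. Oas2, Mx1 and Mx2 had no window here. The core GAAANNGAAA, searched on both strands, was in the windows of Oas1a, Oas3, Ifit1 and Ifit3, which is 4 of 7 genes. Over all 27025 genes with a window, 3.99% held it. It was not in the windows of Oasl1, Oasl2 or Ifit2. Oasl1 and Oasl2 were higher in HDAC4&5 than in WT by 8.66 and 7.97 (log2), and the 2 Ifit2 probes by 1.03 and 0.75. The 160 bases before the start are shown for the 4 genes with the core and for both Ifit2 starts, because Ifit2 had the smallest differences of the 3 families in the cells. Each runs 5′ to 3′ on the strand of its gene, and capitals mark the core, which for Ifit1 and Ifit3 reads on the opposite strand.
Oas1a (chr5:120907526-120907685, minus strand): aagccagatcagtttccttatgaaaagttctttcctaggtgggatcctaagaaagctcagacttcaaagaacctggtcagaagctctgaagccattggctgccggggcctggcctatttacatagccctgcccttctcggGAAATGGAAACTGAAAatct
Oas3 (chr5:120777660-120777819, minus strand): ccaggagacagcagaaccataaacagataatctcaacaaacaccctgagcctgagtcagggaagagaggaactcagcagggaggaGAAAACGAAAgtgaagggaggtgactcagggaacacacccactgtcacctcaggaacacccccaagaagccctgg
Ifit1 (chr19:34640729-34640888, plus strand): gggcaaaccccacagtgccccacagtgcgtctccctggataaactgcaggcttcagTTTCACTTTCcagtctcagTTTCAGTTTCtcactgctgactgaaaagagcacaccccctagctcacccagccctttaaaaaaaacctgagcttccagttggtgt
Ifit3 (chr19:34583369-34583528, plus strand): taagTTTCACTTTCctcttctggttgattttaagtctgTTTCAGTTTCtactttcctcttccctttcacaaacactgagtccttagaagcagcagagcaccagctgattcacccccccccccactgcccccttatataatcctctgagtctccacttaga
Ifit2, first start (chr19:34550534-34550693, plus strand): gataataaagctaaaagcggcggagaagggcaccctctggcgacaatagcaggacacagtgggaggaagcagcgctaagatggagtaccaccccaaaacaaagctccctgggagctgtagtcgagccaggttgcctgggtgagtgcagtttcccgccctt
Ifit2, second start (chr19:34550928-34551087, plus strand): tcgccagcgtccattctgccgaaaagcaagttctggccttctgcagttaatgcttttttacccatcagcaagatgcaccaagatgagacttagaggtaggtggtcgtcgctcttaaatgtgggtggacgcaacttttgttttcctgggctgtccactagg
The 2 cores of Oas1a overlap and begin 20 and 14 bases before its start. In Oas3 the core begins 75 bases before the start. Ifit1 held cores 104 and 85 bases before its start, and Ifit3 held cores 156 and 122 bases before its start. A core of the gamma-activated site, TTCNNNGAA, was in the windows of Oas1a and Ifit2, 2 of 7 genes, against 9.55% of all genes with a window. A letter match is a description and not a bound site.

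Levels are log2 of the processed signal minus the log2 of the 75th percentile of the same array, so that 0 is the 75th percentile. The 75th percentile lay between 494 and 1691 intensity units on the 12 cell arrays and between 153 and 686 on the 7 soleus arrays, and 46.8% to 57.5% of spots were well above background. The mouse Hdac5 probe was higher in the HDAC4&5 cells by 1.42 ± 0.27 (log2 difference ± SE, adjusted p = 0.00039 with limma), whereas the Hdac4 probe differed by -0.05 ± 0.05. Whether these mouse probes read the human transcripts was not tested. Of 6 listed myoblast markers, Myod1, Myog, Des and Cdh15 were well above background on 6 of 6 WT arrays. All 4 were lower in HDAC4&5. Myod1, the myoblast determination factor, was well above background on 0 of 6 HDAC4&5 arrays. It was at least 263-fold lower on the processed signal, and differed by -5.52 (log2) with normexp background correction. Des differed by -8.45 ± 0.19 and Cdh15 by -5.70 ± 0.21. No cell array held Myf5 or Pax7 well above background. Of 7 muscle fibre markers, 6 were tested in the cells, and 5 were lower in HDAC4&5 and 1 higher (31.8% and 36.5% over all probes). The summed log2 level of the 7 was 4.37 to 5.23 in WT and -1.38 to -1.17 in HDAC4&5. The 4.37 is WT replicate 3, whose Tnnt1 spot was an outlier and is missing from its sum. In soleus all 7 muscle fibre markers were well above background on every array.

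In the HDAC4&5 cells, 9 of the 10 antiviral genes lay far above their WT level by at least 1 probe, and Ifit2 lay 2.04-fold above it. On the processed signal each of the 9 was at least 4.76-fold higher. Folds given as at least are bounds for that signal only, and with normexp background correction some differences were smaller than their bound. Of the 14 probes, 13 passed the filter on signal, all 13 were called higher by limma at an adjusted p of 0.05, and 12 did not overlap between the groups. Over all 21478 probes tested, 36.5% were called higher and 27.4% were higher without overlap. The members were picked with these values known, and 8 of the 13 probes passed the filter only through the HDAC4&5 arrays, so nothing is read from those counts. Their log2 differences ran from 0.75 to 10.33 with a median of 8.14, where the median over all probes tested was 0.05. Of the 13 probes, 9 differed by more than 6 and 7 by more than 8.

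Oas2 is an OAS enzyme anchored to membranes. Its brighter probe was at -7.73, -6.64 and -4.42 (lowest, median and highest) in WT and at 3.51, 3.81 and 3.93 in HDAC4&5. It was well above background on 1 of 6 WT arrays and on every HDAC4&5 array, and the difference was 10.33 ± 0.46, or 7.06 with normexp background correction. The dimmer Oas2 probe, which lies 4563 bases upstream in the gene on mm9, was at -2.78, -2.58 and -2.49 in HDAC4&5 and was not well above background on any WT array. Its difference was 5.02 ± 0.09, and measured against the lowest signal above background it was at least 8.59-fold higher. Both probes put the groups in the same order without overlap, with differences that were not alike in size.

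Oas1a, an active synthetase of the Oas1 gene cluster, was at -5.56, -5.02 and -3.79 in WT and at 4.02, 4.33 and 4.46 in the 5 HDAC4&5 arrays whose spot was not marked as an outlier. The groups lay 9.22 ± 0.27 apart. Its probe may also read close copies of the gene on chromosome 5, which was not tested.

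Oas3, which makes oligoadenylates on long double-stranded RNA, was not well above background on any WT array with either probe. The brighter probe was at 1.38, 1.58 and 1.70 in HDAC4&5, at least 155-fold higher on the processed signal. The dimmer one, 3369 bases upstream, was at -1.42, -1.07 and -0.65, at least 25.4-fold higher on the same signal. The differences between the measured means were 8.37 ± 0.27 and 6.75 ± 0.15.

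Oasl1 and Oasl2 belong to the OAS-like branch, and Oasl1 is known to hold back translation of Irf7. Oasl1 was at -5.69, -5.45 and -4.49 in WT and at 3.17, 3.38 and 3.48 in HDAC4&5, a difference of 8.66 ± 0.17. Oasl2 was at -3.53, -3.24 and -2.73 in WT. In HDAC4&5 it was at 4.70, 4.75 and 4.80 on the 3 arrays measured, since 3 spots were outliers, and the difference was 7.97 ± 0.16. Oasl2 was well above background on every WT array and Oasl1 on 5 of 6.

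The IFIT family split in size. Ifit1, which binds RNA whose cap lacks the host's methyl marks, was at -6.31, -5.82 and -3.90 in WT, with 3 of 6 arrays well above background. In HDAC4&5 it was at 2.40, 2.79 and 3.12, a difference of 8.24 ± 0.35. Ifit3, an adaptor in Mavs signalling, was at -4.75, -3.53 and -2.58 in WT and at 4.99, 5.09 and 5.18 in HDAC4&5, a difference of 8.75 ± 0.27. Both genes were far apart between the groups. Ifit3 had a wide spread among the dim WT arrays and a narrow one among the bright HDAC4&5 arrays (SD 0.74 against 0.07, n = 6 arrays each).

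Ifit2, which is known to promote apoptosis, stood in a different place. The brighter Ifit2 probe was at -1.73, -1.60 and -1.39 in WT and at -0.65, -0.53 and -0.42 in HDAC4&5, with every array well above background. The groups did not overlap, and the difference was 1.03 ± 0.06, a 2.04-fold rise. The dimmer Ifit2 probe, 1937 bases upstream, was at -4.49, -3.53 and -2.49 in WT and at -3.46, -2.64 and -2.13 in HDAC4&5. These values overlapped and differed by 0.75 ± 0.32. Both Ifit2 probes had a measured signal on all 12 arrays, so the small size was measured and is not a bound.

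**Figure D1:**
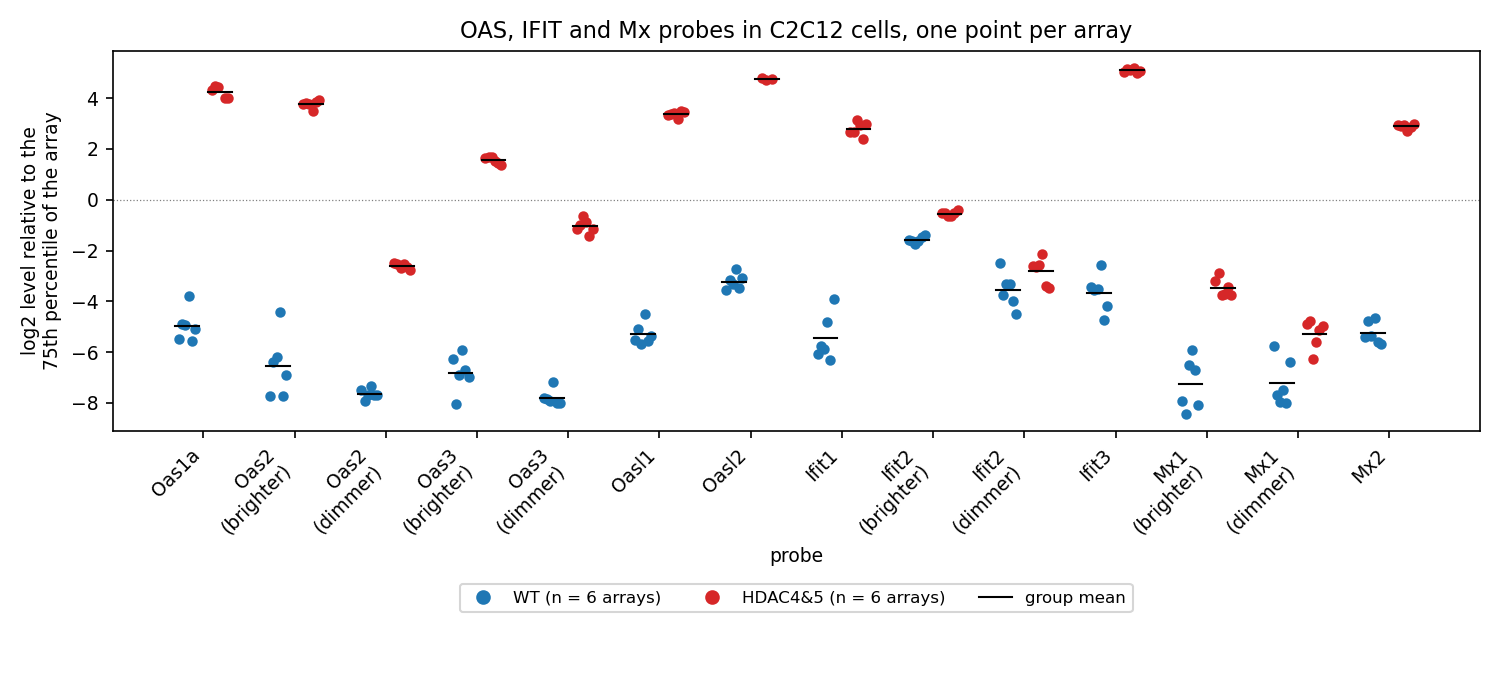
Log2 level relative to the 75th percentile of the array (y axis) for each of the 14 probes (x axis) in WT (blue) and HDAC4&5 (red) C2C12 cells, 1 point per array and a line at each group mean. The HDAC4&5 points lie clear above the WT points for 12 probes, while those of the dimmer Ifit2 probe and the dimmer Mx1 probe overlap; missing red points of Oas1a and Oasl2 are outlier spots.

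The Mx genes lay apart from each other. Mx2, a dynamin-like GTPase, was at -5.68, -5.39 and -4.65 in WT and at 2.69, 2.93 and 2.97 in HDAC4&5, a difference of 8.14 ± 0.17. Mx1 was not well above background on any WT array with either probe. Its brighter probe was at -3.76, -3.59 and -2.88 in HDAC4&5, a difference of 3.80 ± 0.40 and at least 4.76-fold higher. The dimmer Mx1 probe, 2385 bases upstream, was well above background on 4 of 6 HDAC4&5 arrays, did not pass the filter and was at least 1.36-fold higher. Many inbred laboratory strains carry a broken Mx1 gene whose transcript is low, and whether the line of origin of these cells does was not tested.

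The size of the rise depended on the background correction where the WT signal was faint. With normexp, the Oas2 dimmer probe fell from 5.02 to 1.76 and the Mx1 brighter probe from 3.80 to 1.47. The Oas3 brighter probe fell from 8.37 to 4.95 and the Oas3 dimmer probe from 6.75 to 2.92. Each of these differences is smaller than the fold given above as at least, which holds for the processed signal only. The members' median fell from 8.14 to 5.95. The brighter Ifit2 probe ran from 0.85 to 1.09 over 29 settings and the dimmer one from 0.47 to 0.99 over 28.

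**Figure D2:**
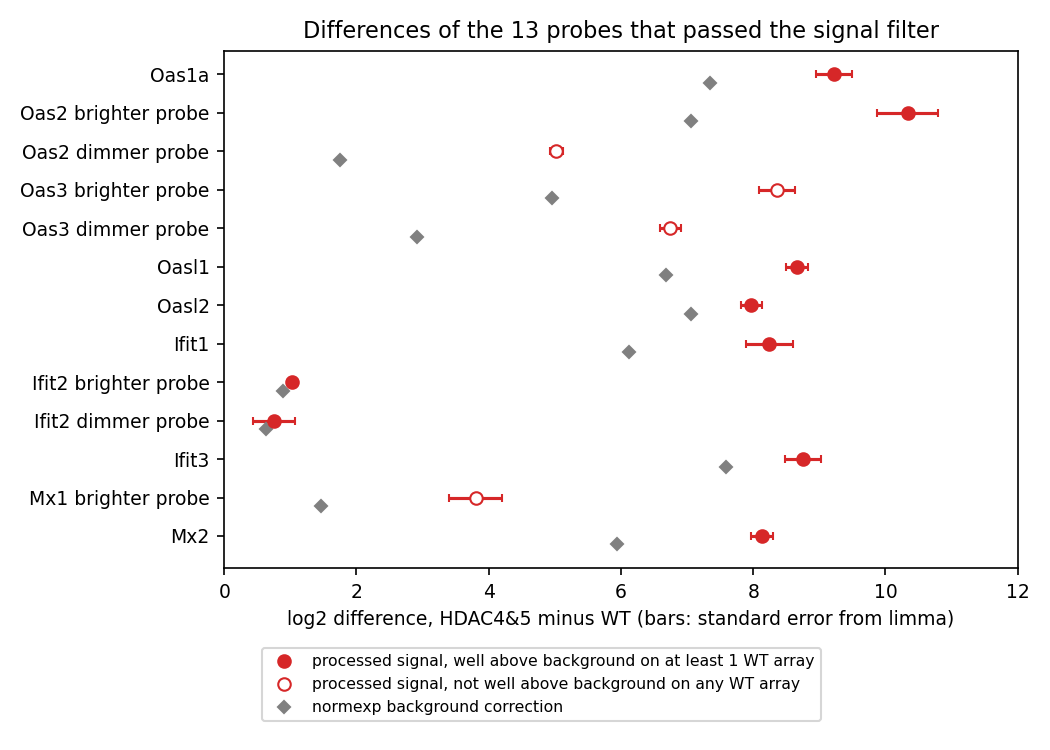
Log2 difference between HDAC4&5 and WT cells (x axis) for the 13 probes that passed the filter on signal (y axis), with bars for the standard error from limma; open circles mark probes that were not well above background on any WT array, and grey diamonds give the same difference after normexp background correction. The Ifit2 probes lie near 1, and the Oas2 brighter probe lies at 10.33, or 7.06 after that correction.

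Among the WT arrays, replicate 4 was the highest for 10 of the 14 probes. Without it the difference of the Oas2 brighter probe was 10.76 and the median over the members was 8.26. With each gene's brighter probe centred on the mean of its 4 group means, the mean over the 10 genes was -1.95 on that array, between -3.24 and -2.86 on the other WT arrays, and between 4.37 and 4.69 on the HDAC4&5 arrays. Within each of the 3 slides, which held 2 arrays of each group, all 13 probes were higher in HDAC4&5. The difference of the Oas2 brighter probe was 10.86, 8.95 and 11.19 on the 3 slides, and that of the Ifit2 brighter probe was 1.09, 1.04 and 0.96.

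Of 10 further OAS and IFIT genes, 6 passed the filter and all 6 rose (36.5% of all probes did), with a median difference of 5.29 (0.05 over all probes). All 6 passed it only through the HDAC4&5 arrays, so they could not have been tested had they been low there. Oas1f rose by 8.91 ± 0.36 and Ifit3b by 7.95 ± 0.12, or by 6.74 and 3.87 with normexp. The WT levels of Ifit3b were faint, between -8.31 and -7.51. Ifit3b is a near copy of Ifit3, and the 2 probes may share transcripts. Oas1c, Oas1b and Oas1d rose by 6.18, 4.40 and 4.36, or by 3.05, 1.69 and 1.53 with normexp. These 3 were not well above background on any WT array, so the size of their rise was not measured. Oas1g, Oas1h, Ifit1bl1 and Ifit1bl2 did not pass the filter.

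Of 17 ligand and receptor genes, 14 were on the array and 6 passed the filter. Ifnb1, which encodes interferon beta, was not well above background on any of 6 WT arrays and was so on 6 of 6 HDAC4&5 arrays. It was at -4.35 to -3.52 there, at least 3.76-fold higher on the processed signal. With normexp the difference was 1.33 (log2), which is less than that bound. Like the OAS and IFIT genes it passed the filter only through those arrays. Ifnar1, a subunit of the type I receptor, fell by 0.56 ± 0.05, and Il10rb, a subunit shared with the type III receptor, fell by 0.90 ± 0.07. Ifngr1 and Ifngr2 fell by 0.21 and 0.22. Ifnar2 was called higher at 0.15, and lay at -0.03 without a call in the authors' normalized table.

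Signalling and feedback genes rose in 14 of 17 cases and fell in 2 (36.5% and 31.8% over all probes), with a median difference of 1.86. The count that rose was 13 with quantile normalization or normexp, and 11 of 16 in the authors' normalized table. Usp18, a protease that removes Isg15 and damps the receptor, rose by 9.29 ± 0.36, from between -6.22 and -3.55 to between 4.33 and 4.69. The RNA sensors Dhx58, Ifih1 and Ddx58 rose by 6.95, 3.97 and 3.64, and Irf7, a transcription factor that amplifies interferon genes, rose by 6.39 ± 0.11. Tyk2 fell by 1.18 ± 0.11 and Irf3 by 0.55 ± 0.10. Of 3 Jak1 probes, the brightest over the cell arrays did not pass the test at -0.05 ± 0.05 (adjusted p = 0.43, limma). Another Jak1 probe lay somewhat higher in HDAC4&5. It was at 3.25 to 3.66 in WT and at 3.48 to 3.75 on the HDAC4&5 arrays measured, which overlapped.

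Of 26 other interferon-induced effectors, 21 rose, 1 fell and 4 did not pass the test (36.5% of all probes rose and 31.8% fell), with a median of 2.22. Ifi44 rose by 9.33 and Sp100 by 8.78, each from below background on every WT array, at least 274-fold and 267-fold on the processed signal. With normexp they rose by 5.79 and 5.68, which is less than those bounds. Zbp1, a sensor of Z-form nucleic acid, rose by 8.30. Isg15, a ubiquitin-like modifier, rose by 6.80 from levels between -1.53 and -1.06 to levels between 5.38 and 5.79. Cmpk2 rose by 6.03 from faint WT levels between -7.67 and -6.59, or by 2.62 with normexp. Ifitm1, a membrane protein that blocks viral entry, was the 1 that fell, by 3.52 ± 0.08, with WT arrays at 1.40 to 1.56 and HDAC4&5 arrays at -2.24 to -1.70. Pml, Ube2l6 and Ifitm2 were among those that did not pass the test. With the slide as a block 23 rose, Pml and Ube2l6 being called at differences of 0.15 and 0.16 (adjusted p = 0.0044 and 0.018, limma), and the replicate block also gave 23.

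**Figure D3:**
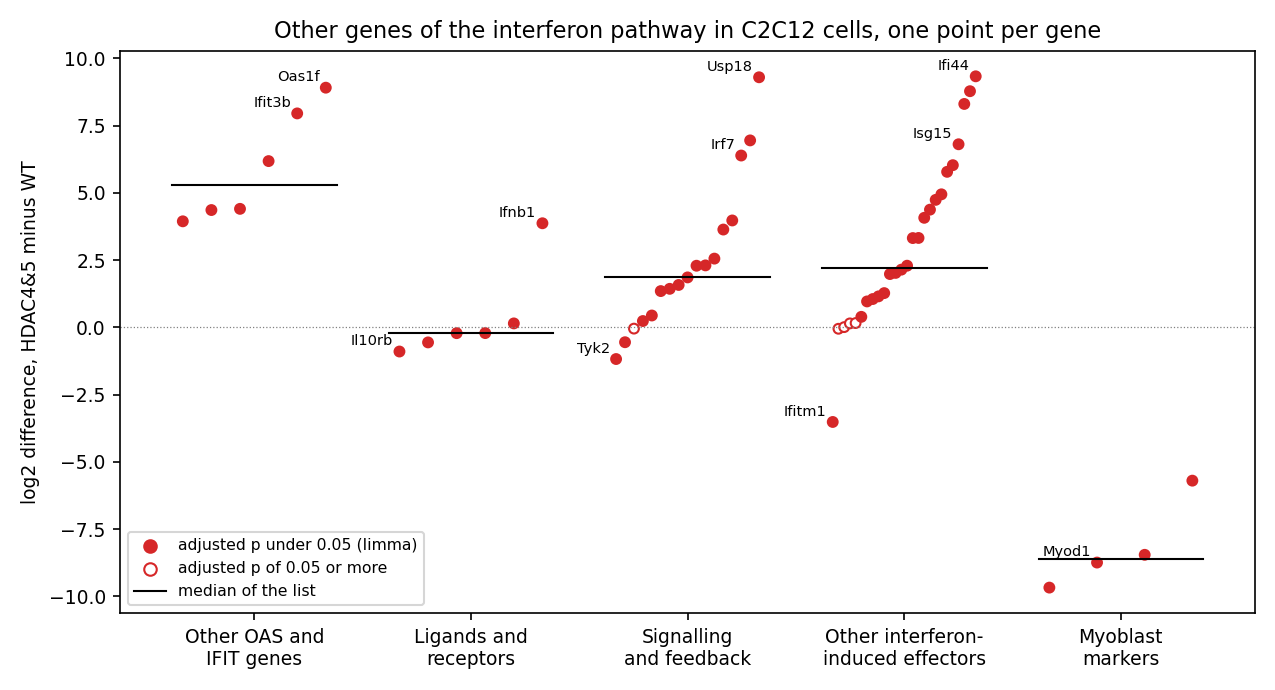
Log2 difference between HDAC4&5 and WT C2C12 cells (y axis), 1 point per gene that passed the filter, in 4 lists of interferon pathway genes and the myoblast markers (x axis); filled points had an adjusted p under 0.05 and the line is the list's median. All 6 other OAS and IFIT genes lie above 0, Ifitm1 lies at -3.52 and the 4 myoblast markers lie between -9.67 and -5.70.

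Markers of other cell types moved with the groups as well. Of 6 macrophage markers 3 passed the filter, with Lyz2 and Cd14 higher and Cd68 lower. The summed level of the list was 0.93 to 1.28 in WT and 2.51 to 2.82 in HDAC4&5 (log2). Most of that sum was Cd14 alone, at 0.75 to 1.15 in WT and 2.44 to 2.77 in HDAC4&5. The macrophage markers Csf1r and Itgam were not well above background on any cell array. The summed fibroblast level was 2.29 to 2.53 in WT and 4.44 to 4.54 in HDAC4&5, and Col1a1 and Pdgfra were higher while Dcn was lower. In HDAC4&5 most of the fibroblast sum was Col1a1, at 4.32 to 4.43. None of the 4 dendritic cell markers was well above background on any HDAC4&5 array. What part these shifts had in the antiviral values was not tested.

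Across the 4 groups the order of the mean levels was HDAC4&5, Con, db and WT for 12 of the 14 probes. For both Ifit2 probes it was HDAC4&5, WT, Con and db. Each array was scaled to its own 75th percentile, so an order between cells and muscle also carries any difference between the tissues in that percentile. Con and HDAC4&5 did not overlap for 11 of those 12 probes, the exception being the dimmer Mx1 probe. The neighbours Con and db overlapped for 10 of the 12, all but Oas1a and Oasl1, and db and WT overlapped for 8. The Oas2 dimmer, Oas3 and Mx1 probes were not well above background on any soleus or WT array, and their order there has no meaning beyond background. The dimmer Ifit2 probe was not well above it in any soleus.

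In soleus, Oas1a, Oasl1, Oasl2, Ifit3 and Mx2 passed the filter, Oas1a and Oasl1 only through the Con arrays, and the mean of each was below 0 as db minus Con. None was called at an adjusted p of 0.05 by limma, while 0.00539% of 18540 probes, 1 in all, were called. At an unadjusted p of 0.05 the count was 2 of 5, Oas1a and Oasl1 (2.81% of all probes were lower), and the same 2 did not overlap between the groups (4.55% of all probes were lower without overlap). Nothing is read from these counts, for the reasons given for the cells. The median over the 5 was -1.30, against 0.02 over all probes, and it ran from -1.70 to -0.77 when 1 array was left out, being -0.77 without db replicate 1. In whole muscle, fewer cells of a type and less RNA per cell cannot be told apart.

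Oas1a was at -2.18, -1.86 and -2.32 in the 3 Con muscles. It was at -3.97, -3.30, -4.51 and -3.68 on the 4 db arrays, all below the Con values, with 2 of 4 well above background. The difference was -1.75 ± 0.36. Oasl1 was at -2.66, -2.49 and -1.45 in Con. It was at -3.60, -3.87, -4.40 and -4.70 in db, again all lower, with 1 of 4 well above background, and the difference was -1.94 ± 0.42.

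Oasl2 was at 0.46, 0.66 and 1.31 in Con and at -0.85, -0.65, 0.16 and 0.67 in db, which overlapped and differed by -0.98 ± 0.45. Ifit3 was at 0.84, 1.23 and 0.80 in Con and at -3.16, -0.08, 1.01 and 0.87 in db. A single db array, replicate 1, was far below the rest, and without it the Ifit3 difference was -0.36 in place of -1.30. Mx2 was at -2.26, -1.54 and -2.94 in Con and at -2.52, -2.37, -3.51 and -3.18 in db, a difference of -0.65 ± 0.44 that was -0.99 without Con replicate 3 and -0.29 without Con replicate 2.

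Several probes differed more between the 2 soleus slides than between genotypes. Slide 1 held replicates 1 and 2 of both groups, and slide 2 held Con replicate 3 and db replicates 3 and 4. The 75th percentile lay between 153 and 232 on the first and between 555 and 686 on the second. The brighter Oas2 probe was at -0.79 and -0.37 in Con and at -2.52 and -1.72 in db on slide 1, but at -4.30 in Con and at -6.66 and -5.57 in db on slide 2, where its signal was within background on all 3 arrays. Ifit1 was at -1.92 and -1.52 in Con and at -3.69 and -3.33 in db on slide 1, and at -4.89 in Con and at -6.17 and -6.43 in db on slide 2. For both probes db lay below Con within each slide, but for Oas2 the order on slide 2 is one within background. Ifit1 was well above background on only 2 of 3 Con and 1 of 4 db arrays, so its order among the dim values carries the same limit. The brighter Ifit2 probe was at -2.82 and -2.09 in Con and -1.91 and -2.53 in db on slide 1, and at -4.94 in Con and -5.34 and -3.95 in db on slide 2, with no such order. Mx2 means were -1.90 in Con and -2.44 in db on slide 1, and -2.94 in Con and -3.34 in db on slide 2.

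Within slides, the Oas1a difference was -1.62 on slide 1 and -1.77 on slide 2, and the Oasl1 difference was -1.16 and -3.10. With the slide as a block the adjusted p (limma) was 0.0838 for Oas1a, 0.112 for Oasl1 and 0.0996 for Oasl2, and 32 probes were called in all. Ifit3 was -2.65 on slide 1 and 0.14 on slide 2.

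**Figure D4:**
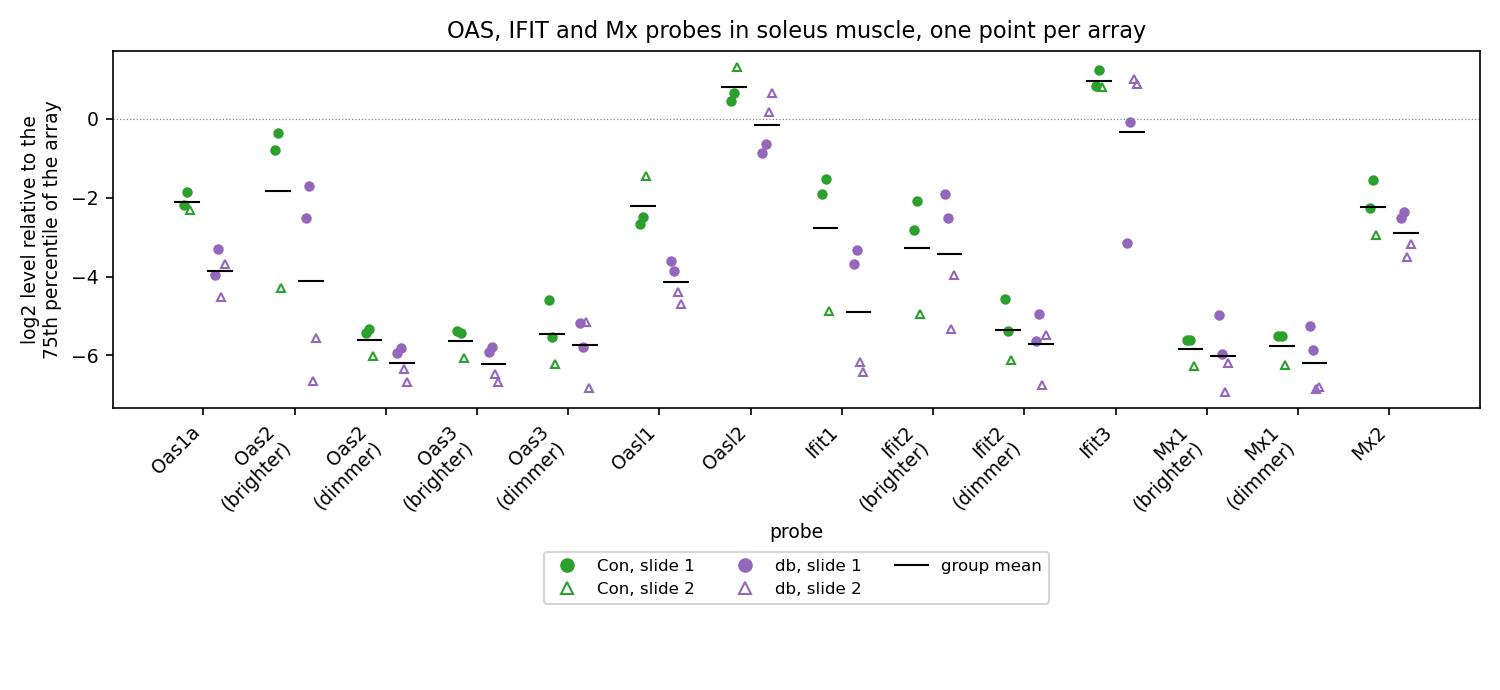
Log2 level relative to the 75th percentile of the array (y axis) for each of the 14 probes (x axis) in soleus muscle of Con (green) and db (purple) mice, 1 point per array with a line at each group mean; filled circles are slide 1 and open triangles are slide 2. Oas1a and Oasl1 do not overlap between the groups, and the Oas2 brighter probe and Ifit1 split by slide.

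Of the other interferon-induced effectors, 0 of 23 were called in soleus. Their differences were below 0 in 21 of 23, with a median of -0.51, and 48.4% of all probes were below 0. Isg15 was between -1.77 and 0.07 in Con and at -2.09, -2.22, -3.13 and -2.77 in db, without overlap, a difference of -1.65 ± 0.48. Of the signalling and feedback genes 10 of 14 were below 0. Ifnb1 was not well above background on any soleus array. All 4 endothelial markers were below 0, and their summed log2 level was 3.69 to 4.48 in Con and 2.56 to 3.66 in db, while the macrophage sum was 5.15 to 6.89 in Con and 5.35 to 6.76 in db. What part these had in the antiviral values was not tested.

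**Figure D5:**
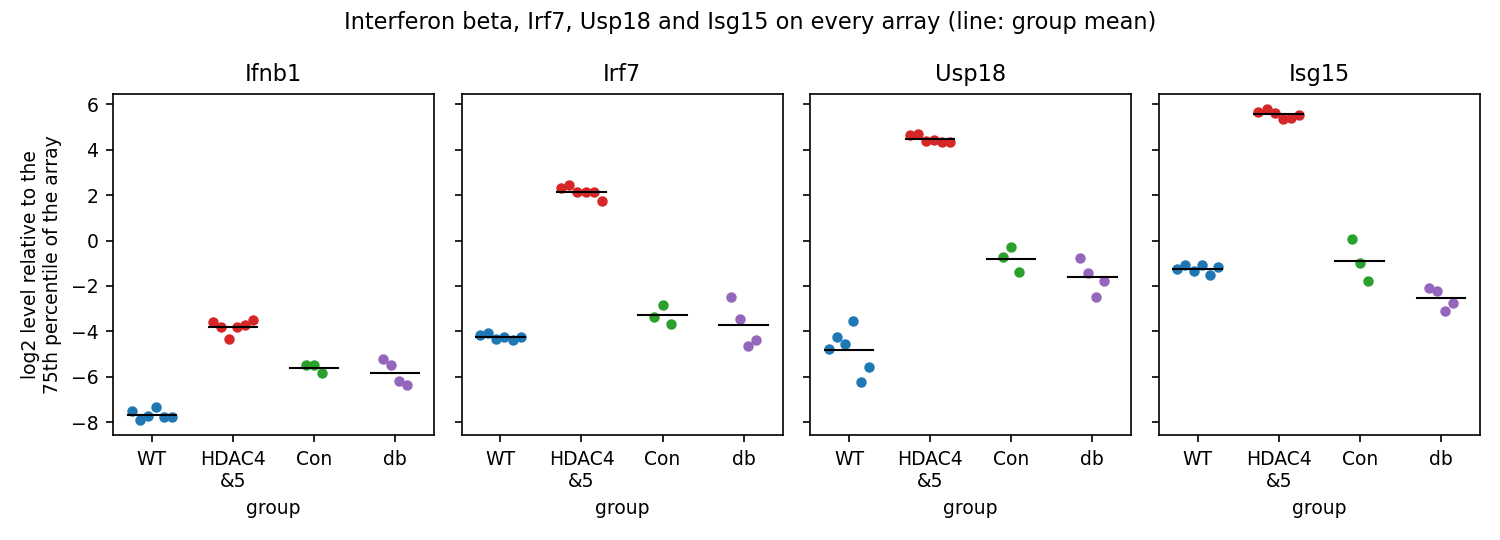
Log2 level relative to the 75th percentile of the array (y axis) of interferon beta (Ifnb1), Irf7, Usp18 and Isg15 on each array of the 4 groups (x axis), with a line at each group mean. All HDAC4&5 arrays lie above all others for the 4 genes, and Ifnb1 was well above background in HDAC4&5 cells only.

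The genes whose level followed this centred mean of the 10 antiviral genes most closely over the 19 arrays were Caln1 (r = 0.993), Oas1f (0.993), Sp100 (0.992), D14Ertd668e (0.992) and Acod1 (0.991), from 19208 candidates. These correlations rest on the gap between HDAC4&5 and all other arrays, which every point of a group shares. After the group means were taken out of the 12 cell arrays, the closest were 2610027H17Rik (0.968), Dock4 (0.950), 6430571L13Rik (0.947), Dleu2 (0.947) and Rad51b (0.939), from 21860 candidates. Without WT replicate 4 those 5 fell to between 0.30 and 0.78, so their likeness rested in large part on that array.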

How the data were processed

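RNA (100 ng per sample) was labelled with Cy3 and hybridised to Agilent arrays, and per the file headers the scans were extracted with Agilent Feature Extraction 9.5.1.1. The authors deposited the background-corrected intensity of every spot, with probe positions on mm9, and a table of normalized values on a linear ratio scale, whose scaling is not given in the sources used here. In that table some soleus columns could not be tied to single scans, so it served as an alternative by group.

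Here the processed intensity was converted to log2 and the 75th percentile of each array was subtracted, outlier spots and controls were left out, spots of 1 probe were averaged, and a probe was tested if all arrays of at least 1 group held it well above background, using limma 3.58.1 in R 4.3.3 (lmFit and eBayes, Benjamini-Hochberg adjustment over all probes tested, 0.05). The fit had 6 against 6 cell arrays and 3 against 4 soleus arrays. In the lists the brightest probe represented its gene. A bound sets the mean of the bright group against, per array of the dim group, the higher of the lowest signal well above background and the probe's own. It is made on the processed signal, and another background correction can give a smaller difference. RefSeq accessions updated the names of 2694 probes, with 27198 matched.

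The members and lists were chosen with earlier results of these data known. Every member probe is named, and in each pathway list up to 5 called genes with the largest difference, with others given where a result turned on them (chosen after their values were seen). Replicate numbers follow the slide: same-numbered arrays of the 2 groups deviated together (r 0.228 to 0.584 over 6 cell pairs, 0.371 to 0.661 over 3 soleus pairs), as did other pairs on the same slide, so the number was tried as a block. The fit was first tried on simulated data with 200 probes changed by 2 in log2. It recovered 99.5% of them in the cell design and 26% in the soleus design, with 4.33% and 8.77% of calls false. A lack of calls in soleus therefore says little. The number of arrays limits the precision. Some genes of the lists are counted but not reported here by name. Alternatives were quantile normalization, normexp (offset 50), the deposited table, other filters, 1 probe per gene, blocks, single slides, the methods' t-test, a fold of 1.5 and leaving out each array. Keeping outlier spots was added after seeing the data.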

Additional observations from a re-analysis of the deposited data

Results flagged for a closer look

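WT replicate 4 lay far above the other WT arrays for 2 probes, judged by its gap to the nearest array relative to the whole range of the group. Oas1a was at -3.79 on that array and at -4.91 on the next highest. The dimmer Oas3 probe was at -7.17 and the next highest array at -7.80, both below background. Chance gives such a gap in about 1 of 20 groups, and 2 of the 41 groups of member values had one, where 2.05 would be met by chance.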

How the results depend on the processing

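In C2C12 cells 14673 of 21478 probes tested were called. With 1 probe per gene, where fewer were tested, 9707 of 14023 were called. The count was 8029 with a fold of at least 1.5, and 14241 to 14606 when 1 array was left out. The 13 member probes called became 7 (8 tested) in the authors' table, which lists fewer of them, 5 (5 tested) with a stricter filter, and 12 to 13 when 1 array was left out. With the authors' values, 4149 probes were called higher and 6434 lower (39.2% higher), against 53.4% higher otherwise, with the median of all probes at -0.09; it was 0.16 with normexp and 0.27 without a filter. Every member probe was higher in HDAC4&5 under each alternative that measured it. The dimmer Ifit2 probe lost its call in 16 of 28 (limma or the methods' t-test, adjusted p 0.0049 to 0.406).

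In soleus the 1 probe called became 3 with quantile normalization, 3 with the methods' t-test, 0 with normexp, the authors' table or a stricter filter, 32 with the slide as a block, 16 within slide 1 and 22 within slide 2, and 0 to 2 when 1 array was left out. Within slide 2, which held a single Con array assumed to vary like the rest, the count of members was 1 (Oasl1, -3.10), which is no support for a call, and Ifit3 reversed there to 0.14. The cause of these shifts was not tested. With the replicate block 16297 cell probes and 1 soleus probe were called, 13 and 0 of them members, and no call of a member changed.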
